A study of Homo sapiens with 9 samples.

Results

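The comparison is between a clone of H2009 cells carrying the guide RNA sgRNA-B and a control carrying an empty guide vector. H2009 is an established line of human lung adenocarcinoma, a gland-forming lung cancer. Members were chosen by sample title, which gave 6 of the 9 arrays of the series, 3 titled CRISPRa_sgRNA-B and 3 titled CRISPRa_Control, and by probe set, keeping those that map to 1 gene symbol (23934 of 24733). After 1 probe set was kept per symbol, 23931 genes were tested. All groups carry CRISPRa, in which a Cas9 that can no longer cut DNA (dCas9) is fused to the activating domains VP64, p65 and Rta, together called VPR. The guide brings this fusion to a chosen place in the genome. All cells grew untreated in medium with blasticidin, the selection antibiotic. The 3 arrays of a group are labelled biological replicates of 1 clone, so what the guide does cannot be told apart from what this clone would show without it. The other 3 arrays came from a clone with a different guide, sgRNA-A. They entered the fit for the estimate of the spread and served in 1 direct comparison with sgRNA-B.

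The guides were aimed at raising the microRNAs of 14q32, an imprinted region in which the copies inherited from the mother express noncoding RNAs, among them MEG3 and a long row of microRNAs. A microRNA is a short RNA that lowers messenger RNAs to which it pairs, mainly through its seed, bases 2 to 8 from its 5′ end. The question of the comparison is which transcripts differ once these microRNAs have been raised; the submitters state that they measured the rise by RT-qPCR before the arrays, and those measurements were not used here.

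Mature microRNAs of the locus with a shared seed are shown because they would pair with the same short sites. RefSeq's table for GRCh38.p14 held 94 mature microRNAs from the locus, with 83 different seeds, so most had a seed of their own. Capitals mark the seed. The set below shared GGUUGUC and lay on the plus strand at chr14:101056233-101056255, chr14:101065925-101065945 and chr14:101029648-101029670.
hsa-miR-323b-5p: aGGUUGUCcguggugaguucgca
hsa-miR-410-5p: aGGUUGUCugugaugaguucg
hsa-miR-494-5p: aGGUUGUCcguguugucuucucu
A pair shared AUACAAG, on the plus strand at chr14:101041414-101041435 and chr14:101045968-101045989.
hsa-miR-300: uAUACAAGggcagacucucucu
hsa-miR-381-3p: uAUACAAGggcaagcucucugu
Another pair shared UCAUAGA, on the plus strand at chr14:101040118-101040138 and chr14:101040497-101040518.
hsa-miR-376a-3p: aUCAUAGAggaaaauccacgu
hsa-miR-376b-3p: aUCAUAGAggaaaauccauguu

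On the arrays themselves, none of the 7 measured genes listed for the imprinted 14q32 locus changed in the sgRNA-B clone (0 had an unadjusted p below 0.05 in limma's fit). Levels are log2 units of RMA, a summary of the probes of each set, and "rose", "fell" and "changed" are used of genes with an adjusted p below 0.05. MEG3, the maternally expressed noncoding RNA, was at 3.58, 3.58 and 3.66 in the control arrays and 3.71, 3.61 and 3.61 in the sgRNA-B arrays (log2 fold change 0.03, SE 0.04, adjusted p = 0.768). DLK1, a paternally expressed membrane protein, was at 4.22, 4.29 and 4.27 in the control arrays and 4.18, 4.29 and 4.17 in the sgRNA-B arrays (log2 fold change -0.04, SE 0.07, adjusted p = 0.842). RTL1, a paternally expressed gene of retrotransposon origin, was at 3.75, 3.77 and 3.79 in the control arrays and 3.78, 3.86 and 3.77 in the sgRNA-B arrays (log2 fold change 0.04, SE 0.04, adjusted p = 0.766). The arrays of both groups overlapped for each of them. MEG8, MEG9, DIO3 and DIO3OS had log2 fold changes of -0.01, -0.04, -0.11 and -0.09. A level at which little RNA is expected was taken from 355 olfactory receptor genes, 95% of which lay below 4.44, and 6 of the 7 genes lay at or below it in both groups. Of 52 microRNA genes of the locus with a probe set, 0 changed in limma's fit, 3 had an unadjusted p below 0.05, and 41 lay at or below the same level in both groups. Their log2 fold changes ran from -0.42 to 0.13 with a median of -0.01, and the lowest adjusted p was 0.135. Whether these probe sets can read the mature forms was not given in the sources used here. Of 40 small nucleolar RNA genes of the locus, none changed (lowest adjusted p = 0.193, median log2 fold change -0.01).

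The 6 arrays were close to each other. Over all genes, arrays of 1 group correlated at 0.9977 to 0.9982, and an sgRNA-B array with a control array at 0.9964 to 0.9978. Principal components were computed on all 9 arrays. On the first (22.8% of the variance) the control arrays lay at 8.86 to 13.6 and the sgRNA-B arrays at -5.74 to -5.1. The sgRNA-A arrays lay on the same side as sgRNA-B, at -11.2 to -3.77. Some markers of lung adenocarcinoma cells were high in both control and sgRNA-B. EPCAM, an epithelial adhesion protein, was at 12.83 ± 0.01 in control and 12.91 ± 0.02 in sgRNA-B (mean ± SD, n = 3). NKX2-1, the lung lineage transcription factor, was at 9.44 ± 0.01 and 9.49 ± 0.01. NAPSA and SFTPB, also typical of this tumour, lay below the level of 4.44 in both groups. No marker of fibroblasts, endothelium, neuroendocrine cells or muscle changed (9, 8, 7 and 10 measured). Among 14 leukocyte markers only CD68, a lysosomal glycoprotein, rose; its call was lost without sgRNA-B arrays 1, 2 or 3 or control arrays 1, 2 or 3 (adjusted p 0.061 to 0.098).

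Against control, 735 of 23931 genes changed in the sgRNA-B clone, 374 higher (1.56% of genes) and 361 lower (1.51%), together 3.07%. The changes were small. Only 6 reached 2-fold, 2 up and 4 down, and 89.8% stayed under 1.5-fold, and the median size of a change was 0.33 log2 units. For all 735 the arrays of the groups did not overlap, as was also true of 9.67% of all genes with sgRNA-B above and 10.5% with sgRNA-B below. The count depended on single arrays: it was 353 without sgRNA-B array 1, 400 without sgRNA-B array 2, 459 without sgRNA-B array 3, 413 without control array 1 and 453 without control array 3. The plot of called genes by array left out shows both directions shrinking together.

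**Figure D1:**
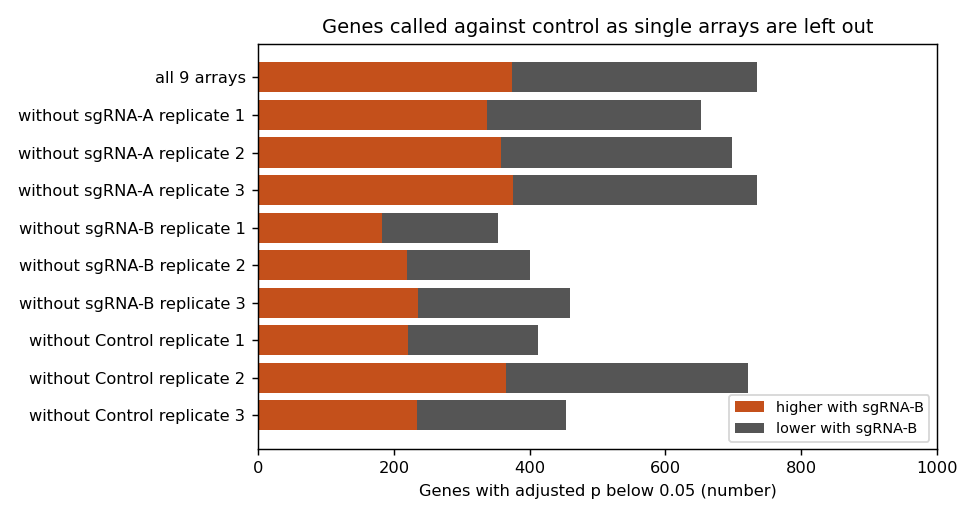
Number of genes with an adjusted p below 0.05 against control (horizontal axis), higher and lower with sgRNA-B stacked in each bar, for all 9 arrays and with each array left out. The total is 735 with all arrays and lowest, at 353, without sgRNA-B array 1.

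The largest of the falls was that of CEACAM5. This gene, the carcinoembryonic antigen, an adhesion protein of the epithelial surface, was at 11.07, 11.06 and 11.01 in the control arrays and 9.45, 9.25 and 9.28 in the sgRNA-B arrays (log2 fold change -1.72, SE 0.06, adjusted p = 6.16e-09). Every sgRNA-B array lay more than 1 log2 unit below every control array. LCN2, a lipocalin that binds bacterial iron carriers, was at 8.09, 8.17 and 7.71 in the control arrays and 6.73, 6.95 and 6.82 in the sgRNA-B arrays (log2 fold change -1.16, SE 0.16, adjusted p = 0.00174). AGR2, a disulfide isomerase of the endoplasmic reticulum needed for mucin folding, was at 8.70, 8.88 and 8.58 in the control arrays and 7.67, 7.51 and 7.64 in the sgRNA-B arrays (log2 fold change -1.11, SE 0.09, adjusted p = 4.66e-05). TMPRSS4, a serine protease anchored in the membrane, was at 7.93, 7.83 and 7.77 in the control arrays and 7.08, 6.83 and 6.54 in the sgRNA-B arrays (log2 fold change -1.03, SE 0.12, adjusted p = 0.000532). These 4 were the genes that fell at least 2-fold, and in none did the groups overlap.

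Next came TMEM40, a membrane protein of squamous epithelium, at 7.02, 6.59 and 6.51 in the control arrays and 5.70, 5.63 and 5.91 in the sgRNA-B arrays (log2 fold change -0.96, SE 0.14, adjusted p = 0.00227). CEMIP, which takes part in the breakdown of hyaluronan, fell less (log2 fold change -0.92, adjusted p = 0.000226), as did the calcium-binding S100A2 (log2 fold change -0.85, adjusted p = 0.00235) and CTSV, a lysosomal cysteine protease (log2 fold change -0.79, adjusted p = 6.08e-06). SLC6A14, an importer of neutral and cationic amino acids, went from a mean of 5.40 ± 0.25 to 4.63 ± 0.13, close to the level of the olfactory receptor genes. PRODH, the first enzyme of proline breakdown (log2 fold change -0.76, adjusted p = 0.00111), CACNG4, a calcium channel subunit (log2 fold change -0.72, adjusted p = 0.00656), ST6GALNAC2, a sialyltransferase of mucin-type glycans (log2 fold change -0.70, adjusted p = 0.0031), and TCN1, a vitamin B12 carrier (log2 fold change -0.69, adjusted p = 0.0031), completed those that stayed called when any array was left out. S100P was lost without sgRNA-B arrays 1 or 3 (adjusted p 0.0619 to 0.0653), the pseudogene CUTALP without sgRNA-A array 1, sgRNA-B arrays 1, 2 or 3 or control arrays 1 or 3 (adjusted p 0.0509 to 0.185) and the endogenous retroviral gene ERV3-1 without control array 1 (adjusted p = 0.0558), with log2 fold changes of -0.75, -0.71 and -0.69.

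**Figure D2:**
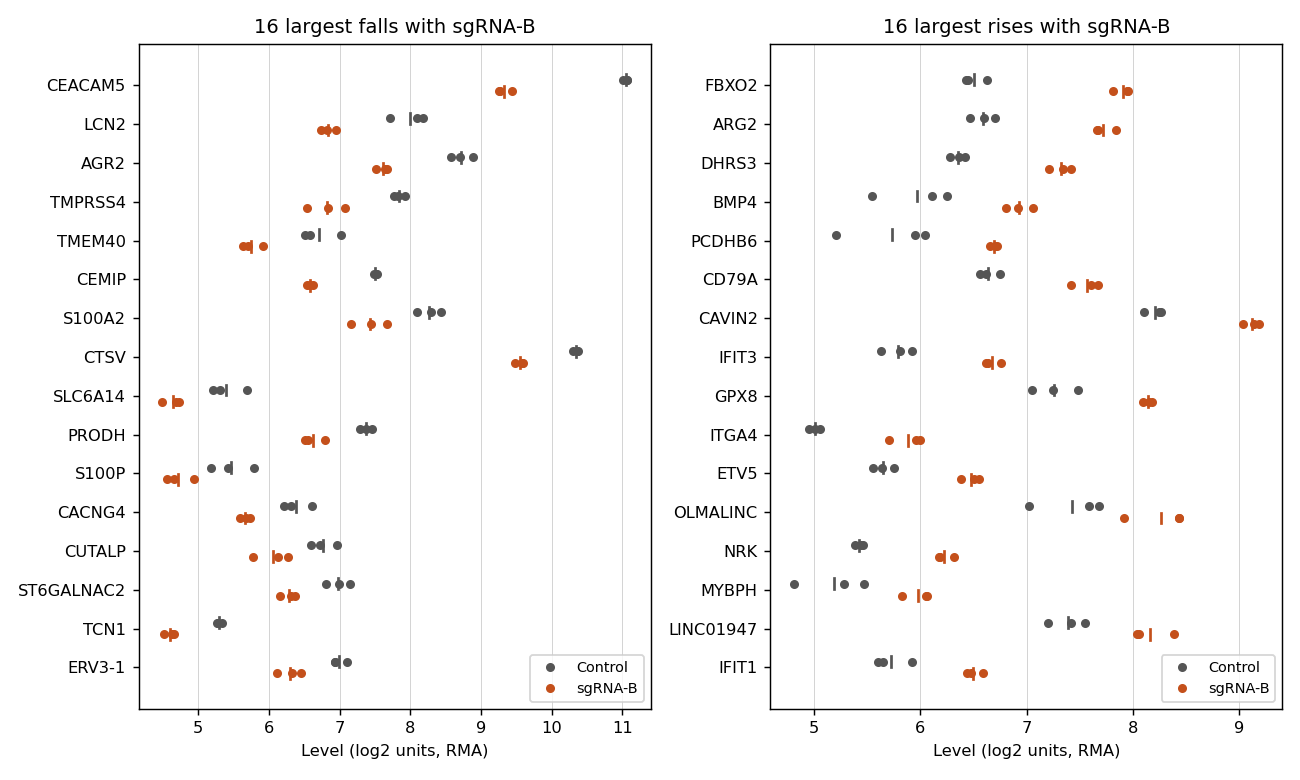
Levels (log2 units) of the 16 genes with the largest rises and the 16 with the largest falls among changed genes, each point 1 array, control and sgRNA-B in separate colours, with a tick at each group mean. In each gene the points of the groups are apart, with FBXO2 showing the largest rise and CEACAM5 the largest fall.

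The 16 largest rises came from many lists. FBXO2, the F-box protein that marks misfolded glycoproteins for ubiquitination, was at 6.43, 6.45 and 6.63 in the control arrays and 7.95, 7.81 and 7.95 in the sgRNA-B arrays (log2 fold change 1.40, SE 0.09, adjusted p = 6.08e-06). ARG2, the mitochondrial arginase that splits arginine into ornithine and urea, was at 6.60, 6.71 and 6.47 in the control arrays and 7.84, 7.66 and 7.67 in the sgRNA-B arrays (log2 fold change 1.13, SE 0.09, adjusted p = 2.52e-05). These were the only genes that rose at least 2-fold, and their groups lay apart. DHRS3, which reduces retinal to retinol, was at 6.37, 6.42 and 6.28 in the control arrays and 7.42, 7.21 and 7.34 in the sgRNA-B arrays (log2 fold change 0.97, SE 0.09, adjusted p = 0.000214). BMP4, a secreted ligand of the bone morphogenetic protein pathway, was at 6.25, 6.11 and 5.55 in the control arrays and 7.06, 6.92 and 6.81 in the sgRNA-B arrays (log2 fold change 0.96, SE 0.16, adjusted p = 0.00428). CD79A, a signalling chain of the B-cell receptor, was at 6.75, 6.62 and 6.56 in the control arrays and 7.61, 7.42 and 7.68 in the sgRNA-B arrays (log2 fold change 0.93, SE 0.11, adjusted p = 0.000664). Of the other 8 measured B-cell markers none was called, with CD79B at 5.08 ± 0.17 and 4.97 ± 0.15 and MS4A1 at 3.66 ± 0.03 and 3.72 ± 0.04 in control and sgRNA-B.

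CAVIN2, which shapes caveolae, small pits of the cell membrane, was at 8.26, 8.24 and 8.11 in the control arrays and 9.19, 9.03 and 9.14 in the sgRNA-B arrays (log2 fold change 0.92, SE 0.07, adjusted p = 1.48e-05). GPX8, a peroxidase of the endoplasmic reticulum (log2 fold change 0.88, adjusted p = 0.00174), ITGA4, the integrin alpha 4 chain (log2 fold change 0.88, adjusted p = 0.00287), ETV5, an ETS factor induced by ERK signalling (log2 fold change 0.83, adjusted p = 0.000883), and NRK, a kinase (log2 fold change 0.80, adjusted p = 0.000936), rose by similar amounts. ITGA4 rose from 5.01 ± 0.05 to 5.89 ± 0.16, so it stayed dim. The noncoding RNA LINC01947 rose as well (log2 fold change 0.77, adjusted p = 0.00174), beside IFIT3 and IFIT1, described with the interferon genes. The calls of PCDHB6, OLMALINC and MYBPH (log2 fold changes 0.96, 0.83 and 0.80) were lost when single arrays were left out: the first was lost without sgRNA-B array 1 (adjusted p = 0.053), the second without sgRNA-B arrays 1 or 2 or control array 3 (adjusted p 0.0505 to 0.0888) and the third without sgRNA-B arrays 1 or 2 or control array 3 (adjusted p 0.0667 to 0.0802).

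Gene lists were then counted, each beside the 1.56% of all genes that rose and the 1.51% that fell, and the median log2 fold change of -0.0039 over all genes. An unadjusted p below 0.05 in limma's fit was found for 3527 of the 23931 genes. The median level of all genes was 4.89, near the olfactory receptor level of 4.44, while that of the G2/M list was 10.12. With the dimmest 50% of genes removed, the fit called 1032 genes, against 735 with all. No share among genes of like level was computed, so the shares set beside the lists are not matched for level. The lists are descriptions, since they were chosen with results of these data known. In the plot of the share of members called, the G2/M and interferon lists reach farthest to the right.

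Of 34 genes of the carcinoembryonic antigen family and mucins with their partners, 4 fell and 2 rose. Beside CEACAM5 and AGR2, the fallers were MUC16, the CA125 mucin, at 8.66, 8.59 and 8.75 in the control arrays and 8.02, 8.12 and 8.10 in the sgRNA-B arrays (log2 fold change -0.59, SE 0.07, adjusted p = 0.000613), and CEACAM6 at 11.73, 11.88 and 11.75 in the control arrays and 11.29, 11.26 and 11.20 in the sgRNA-B arrays (log2 fold change -0.54, SE 0.05, adjusted p = 9.58e-05). MUC1, a membrane mucin, went the other way, at 9.20, 9.15 and 9.18 in the control arrays and 9.64, 9.65 and 9.50 in the sgRNA-B arrays (log2 fold change 0.42, SE 0.06, adjusted p = 0.00174), and so did the transcription factor CREB3L1 (log2 fold change 0.46, adjusted p = 0.0378). CREB3L1 was lost without control arrays 1, 2 or 3, sgRNA-A array 1 or sgRNA-B arrays 1 or 2 (adjusted p 0.0508 to 0.158), which left 1 rise. The list median was -0.04.

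Among 32 secreted defence proteins, LCN2, SCGB3A2 and SLPI fell and CST6, a cystatin, rose (log2 fold change 0.39, adjusted p = 0.00287). SCGB3A2, an airway secretoglobin, was at 4.41, 4.45 and 4.30 in the control arrays and 3.80, 3.97 and 3.91 in the sgRNA-B arrays (log2 fold change -0.49, SE 0.07, adjusted p = 0.00222), at or below the olfactory receptor level in both group means. SLPI, an inhibitor of leukocyte elastase, was also dim, 4.64 ± 0.14 against 4.25 ± 0.06, and was lost without sgRNA-B arrays 1, 2 or 3 or control array 1 (adjusted p 0.056 to 0.101). Among 29 membrane and secreted proteases and their inhibitors, 4 fell (TMPRSS4, TMPRSS11E, SERPINB4 and PLAT) and 2 rose. TMPRSS11E was at 10.38, 10.41 and 10.26 in the control arrays and 9.81, 9.94 and 9.88 in the sgRNA-B arrays (log2 fold change -0.47, SE 0.05, adjusted p = 0.000531). PLAU, the urokinase that activates plasminogen (log2 fold change 0.22, adjusted p = 0.0064), and the kallikrein KLK6 (log2 fold change 0.48, adjusted p = 0.00236) rose, while PLAT, the tissue plasminogen activator, fell (log2 fold change -0.14, adjusted p = 0.0297). PLAT was lost without control arrays 1 or 3 or sgRNA-B arrays 1, 2 or 3 (adjusted p 0.0618 to 0.15). SERPINB4, an inhibitor of serine proteases, lay below the olfactory receptor level and was lost without control array 1, sgRNA-A arrays 1 or 2 or sgRNA-B arrays 1, 2 or 3 (adjusted p 0.0545 to 0.148). The count of falls was 2 without sgRNA-B arrays 1, 2 or 3 or control array 1.

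Arginine, ornithine, proline and polyamine metabolism had 32 measured genes, of which ARG2 rose and PRODH, SAT1 and ODC1 fell. PRODH was at 7.28, 7.46 and 7.37 in the control arrays and 6.79, 6.50 and 6.55 in the sgRNA-B arrays. SAT1, which acetylates spermidine and spermine for breakdown or export, was at 10.30, 10.46 and 10.22 in the control arrays and 9.80, 9.83 and 9.70 in the sgRNA-B arrays (log2 fold change -0.55, SE 0.06, adjusted p = 0.000436). ODC1, which makes putrescine from ornithine, went from 12.04 ± 0.04 in control to 11.84 ± 0.02 in sgRNA-B (mean ± SD, n = 3) with no overlap of arrays (log2 fold change -0.19, SE 0.03, adjusted p = 0.00667); its adjusted p was 0.0584 when no trend of variance with level was fitted. ARG2, which makes ornithine, was higher, and ODC1, which uses it, was lower. Without sgRNA-B replicate 2 the count of rises was 2.

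Of 30 amino acid transporters 7 fell and 0 rose in limma's fit, and 2 higher ones had an unadjusted p below 0.05. SLC7A5, the light chain of the LAT1 exchanger, was at 12.51, 12.39 and 12.52 in the control arrays and 12.06, 12.05 and 12.10 in the sgRNA-B arrays (log2 fold change -0.40, SE 0.04, adjusted p = 0.000226). SLC3A2, the heavy chain it pairs with, was at 11.46, 11.35 and 11.46 in the control arrays and 11.13, 11.16 and 11.11 in the sgRNA-B arrays (log2 fold change -0.29, SE 0.04, adjusted p = 0.0014). SLC38A2, a sodium-coupled importer of small neutral amino acids, fell too (log2 fold change -0.23, adjusted p = 0.0025), as did SLC6A9 (log2 fold change -0.35, adjusted p = 0.0427) and SLC6A6 (log2 fold change -0.25, adjusted p = 0.00866). SLC6A9 was lost without control arrays 1 or 3, sgRNA-A array 1 or sgRNA-B arrays 1, 2 or 3 (adjusted p 0.0522 to 0.159). SLC7A11, the cystine importer, had an adjusted p of 0.0419 and was lost without sgRNA-A array 1, sgRNA-B arrays 1, 2 or 3 or control arrays 1, 2 or 3 (adjusted p 0.0543 to 0.169).

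In the list of ATF4 and unfolded protein response targets, 5 of 34 rose and 0 fell in limma's fit, with 1 lower member at an unadjusted p below 0.05. The transporters that fell, among them SLC7A5, SLC3A2, SLC38A2 and SLC7A11, were counted in other lists and are not members of this one. The 0 falls therefore hold only for the list as drawn. Of the 5 that rose, 3 make serine and glycine. PHGDH, the first enzyme of serine synthesis, was at 9.91, 9.75 and 9.87 in the control arrays and 10.33, 10.39 and 10.27 in the sgRNA-B arrays (log2 fold change 0.49, SE 0.05, adjusted p = 0.000353). PSAT1, the second enzyme, was at 11.36, 11.35 and 11.39 in the control arrays and 11.73, 11.62 and 11.62 in the sgRNA-B arrays (log2 fold change 0.29, SE 0.04, adjusted p = 0.0017). SHMT2, the mitochondrial enzyme that turns serine into glycine, was at 8.98, 9.08 and 9.15 in the control arrays and 9.36, 9.41 and 9.41 in the sgRNA-B arrays (log2 fold change 0.32, SE 0.06, adjusted p = 0.00622). The chaperone CALR (log2 fold change 0.14, adjusted p = 0.041) and the disulfide isomerase PDIA4 (log2 fold change 0.14, adjusted p = 0.0468) were the others. CALR was lost without sgRNA-A array 1, sgRNA-B arrays 1, 2 or 3 or control arrays 1 or 2 (adjusted p 0.0535 to 0.176) and PDIA4 without control arrays 1, 2 or 3, sgRNA-A arrays 1, 2 or 3 or sgRNA-B arrays 1, 2 or 3 (adjusted p 0.0565 to 0.159). The count of rises was 3 without sgRNA-A array 1, sgRNA-B arrays 1, 2 or 3 or control arrays 1 or 2. FBXO27, like FBXO2 an F-box protein that binds glycoproteins, rose as well (log2 fold change 0.39, adjusted p = 0.00323), and the other 6 of 8 genes in their list did not pass.

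Type I interferons induce a set of antiviral genes, many of which hold a repeated GAAA element in their promoters. Of 46 genes on this list 44 were measured, 12 rose and 3 fell, with a median of 0.07. In the sgRNA-A clone 2 of the list rose and 4 fell against control, with a median of 0.003. Tested directly against sgRNA-A, only 1 of the 44 was higher in sgRNA-B and 0 were lower, with a median difference of 0.13. That gene, DDX60, lost this call without sgRNA-A arrays 1 or 3 or sgRNA-B arrays 1, 2 or 3. IFIT3, which takes part in the binding of viral RNA, was at 5.92, 5.81 and 5.63 in the control arrays and 6.62, 6.76 and 6.63 in the sgRNA-B arrays (log2 fold change 0.88, SE 0.11, adjusted p = 0.000924). IFIT1, its partner, was at 5.60, 5.93 and 5.65 in the control arrays and 6.59, 6.47 and 6.44 in the sgRNA-B arrays (log2 fold change 0.77, SE 0.13, adjusted p = 0.00508). ISG15, a ubiquitin-like modifier, was at 8.84, 8.89 and 8.88 in the control arrays and 9.29, 9.34 and 9.26 in the sgRNA-B arrays (log2 fold change 0.42, SE 0.05, adjusted p = 0.000883). In each the sgRNA-B arrays lay above the control arrays.

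IFITM2 and IFITM3, membrane proteins that block virus entry, rose less. Members of this family are near-identical in sequence, so their separate values are uncertain. IFITM2 was at 10.89, 10.95 and 10.89 in the control arrays and 11.24, 11.39 and 11.27 in the sgRNA-B arrays (log2 fold change 0.39, SE 0.04, adjusted p = 0.000353) and IFITM3 at 11.70, 11.75 and 11.78 in the control arrays and 12.07, 12.15 and 11.94 in the sgRNA-B arrays (log2 fold change 0.31, SE 0.05, adjusted p = 0.00307). IFI44 (log2 fold change 0.52, adjusted p = 0.0031), OASL (log2 fold change 0.46, adjusted p = 0.00406), DDX60 (log2 fold change 0.45, adjusted p = 0.0144), HERC6 (log2 fold change 0.40, adjusted p = 0.00356), BST2 (log2 fold change 0.36, adjusted p = 0.00398), IFIH1 (log2 fold change 0.33, adjusted p = 0.0426) and HERC5 (log2 fold change 0.30, adjusted p = 0.0114) completed the 12. DDX60 was lost without sgRNA-B arrays 2 or 3 or control array 1 (adjusted p 0.0608 to 0.0708), IFIH1 without control arrays 1 or 3, sgRNA-A array 1 or sgRNA-B arrays 1, 2 or 3 (adjusted p 0.0548 to 0.155) and HERC5 without control array 1 or sgRNA-B arrays 1 or 2 (adjusted p 0.0516 to 0.0616). IFI27 (log2 fold change -0.59, adjusted p = 0.0166), IFITM1 (log2 fold change -0.45, adjusted p = 0.0293) and OAS1 (log2 fold change -0.37, adjusted p = 0.0337) fell. IFI27 was lost without control array 1 or sgRNA-B arrays 1 or 3 (adjusted p 0.074 to 0.0794), IFITM1 without control arrays 1 or 2 or sgRNA-B arrays 1, 2 or 3 (adjusted p 0.0715 to 0.103) and OAS1 without control arrays 1, 2 or 3 or sgRNA-B arrays 1, 2 or 3 (adjusted p 0.0691 to 0.132). The list's falls were 1 without sgRNA-B array 2 or control array 2 and 0 without sgRNA-B arrays 1 or 3 or control array 1. Of the factors of the pathway, IRF9 had a log2 fold change of 0.16 (adjusted p = 0.588) and IRF7 of -0.02 (adjusted p = 0.971).

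Promoters of 4 risen interferon genes are shown because they hold this element. Each is a stretch of 120 bases before the start of the gene from RefSeq's table for GRCh38.p14, written 5′ to 3′ on the gene's strand. The positions are chr10:89327821-89327940, plus strand for IFIT3, chr10:89392487-89392606, plus strand for IFIT1, chr1:1013364-1013483, plus strand for ISG15 and chr4:168318753-168318872, minus strand for DDX60. Capitals mark GAAA and GAAA with any 2 bases between them or, where the element lies on the other strand, TTTC and TTTC spaced alike. Matches may overlap.
IFIT3: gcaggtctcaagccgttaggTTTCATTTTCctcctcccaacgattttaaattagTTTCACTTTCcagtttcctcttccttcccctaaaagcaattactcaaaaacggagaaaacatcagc
IFIT1: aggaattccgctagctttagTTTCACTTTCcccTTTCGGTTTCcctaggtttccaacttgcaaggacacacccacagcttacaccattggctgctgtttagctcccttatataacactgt
ISG15: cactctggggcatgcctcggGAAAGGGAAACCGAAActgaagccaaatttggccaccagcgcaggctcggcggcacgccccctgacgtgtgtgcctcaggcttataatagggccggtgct
DDX60: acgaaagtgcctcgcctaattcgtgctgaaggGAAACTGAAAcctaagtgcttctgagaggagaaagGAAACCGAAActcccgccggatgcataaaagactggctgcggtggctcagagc
The motif lay in the window of 250 bases before to 50 after the start in 9 of the 10 risen members with a promoter in the table (90%). It was also in 2 of 3 that fell (66.7%) and 15 of 23 not called (65.2%), against 7.72% of all genes that rose, 3.24% of all that fell and 4.14% of genes tested. A match is a description of these letters.

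Peptide presentation by MHC class I, which interferon also raises, had 5 rises and 0 falls among 20 genes, with 1 lower gene at an unadjusted p below 0.05 in limma's fit. ERAP2, a peptidase that trims peptides in the endoplasmic reticulum, was at 9.38, 9.34 and 9.41 in the control arrays and 9.84, 9.74 and 9.97 in the sgRNA-B arrays (log2 fold change 0.47, SE 0.06, adjusted p = 0.0014). TAPBP, which holds MHC class I to the peptide transporter, was at 8.63, 8.66 and 8.61 in the control arrays and 9.12, 9.12 and 8.97 in the sgRNA-B arrays (log2 fold change 0.43, SE 0.06, adjusted p = 0.00129). PSME1, a proteasome activator, rose (log2 fold change 0.30, adjusted p = 0.00789), and so did PSMB10, an immunoproteasome subunit (log2 fold change 0.33, adjusted p = 0.0378), and CALR. PSMB10 was lost without sgRNA-B arrays 1, 2 or 3 or control arrays 1, 2 or 3 (adjusted p 0.0732 to 0.148) and CALR without sgRNA-A array 1, sgRNA-B arrays 1, 2 or 3 or control arrays 1 or 2 (adjusted p 0.0535 to 0.176). The count was 3 without sgRNA-B arrays 1, 2 or 3 or control arrays 1 or 2. HLA-B, a chain of MHC class I, and B2M, its partner, had log2 fold changes of -0.03 (adjusted p = 0.699) and -0.08 (adjusted p = 0.339).

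**Figure D3:**
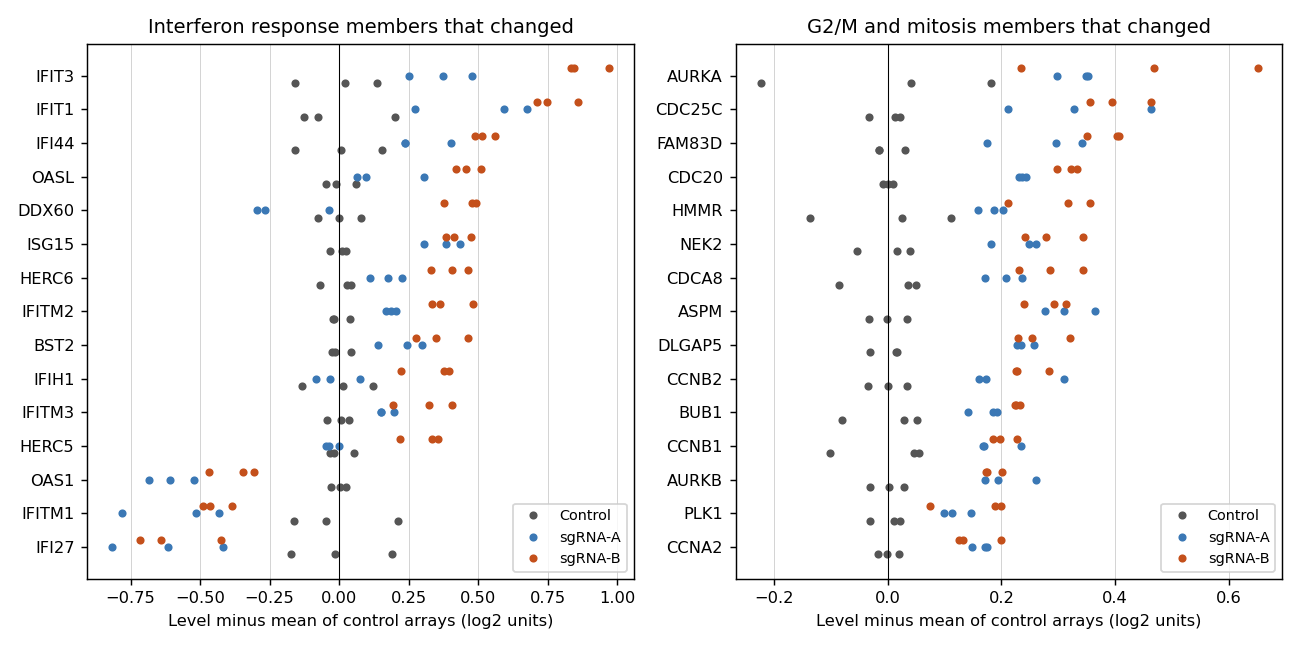
Level of each array minus the mean of the control arrays (log2 units) for the 15 interferon genes and the 15 G2/M genes that changed, each point 1 array, with the sgRNA-A arrays for reference. The sgRNA-B points lie right of the control points in 12 interferon genes and left in 3, and right of them in all 15 G2/M genes, which were selected by their call.

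Genes of the G2 phase and mitosis, which are switched on late in the cell cycle, formed the list with the most rises. Of 35 genes 15 rose in limma's fit, 0 fell (1 at an unadjusted p below 0.05). Of them 33 had a positive log2 fold change, with a median of 0.18. The count was 9 without sgRNA-B array 1 and 8 without sgRNA-B array 2. CCNA2 was lost whichever array was left out (adjusted p 0.0507 to 0.145). PLK1 was lost without any array but sgRNA-B array 3 (adjusted p 0.0623 to 0.205). CCNB1 was lost without control arrays 1 or 3 or sgRNA-B arrays 1, 2 or 3 (adjusted p 0.0529 to 0.12). AURKA was lost without control arrays 1 or 3 or sgRNA-B arrays 1 or 2, and AURKB without control array 1 or sgRNA-B arrays 1, 2 or 3. In the sgRNA-A clone 11 genes of this list rose and 0 fell against control, with a median of 0.184. CDC20, the activator of the anaphase-promoting complex, was at 11.13, 11.13 and 11.14 in the control arrays and 11.47, 11.46 and 11.43 in the sgRNA-B arrays (log2 fold change 0.32, SE 0.03, adjusted p = 0.000282). FAM83D, a spindle protein, was at 9.88, 9.93 and 9.88 in the control arrays and 10.30, 10.30 and 10.25 in the sgRNA-B arrays (log2 fold change 0.39, SE 0.05, adjusted p = 0.000924). DLGAP5, a spindle microtubule protein, was at 10.67, 10.67 and 10.62 in the control arrays and 10.91, 10.88 and 10.97 in the sgRNA-B arrays (log2 fold change 0.27, SE 0.04, adjusted p = 0.00198). CDC25C, the phosphatase that starts mitosis, was at 8.20, 8.26 and 8.25 in the control arrays and 8.63, 8.70 and 8.59 in the sgRNA-B arrays (log2 fold change 0.40, SE 0.07, adjusted p = 0.00541). The groups of all 4 were apart, by less than 0.5 log2 units between means.

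Of 13 mitotic kinesins KIF20A rose, at 9.06, 9.26 and 9.07 in the control arrays and 9.58, 9.58 and 9.54 in the sgRNA-B arrays (log2 fold change 0.43, SE 0.06, adjusted p = 0.00221), and 12 had a positive log2 fold change. The kinesin count of rises was 2 without sgRNA-A array 1 or control array 2. Of 30 centromere and kinetochore genes 7 rose and 0 fell in limma's fit, and 0 lower ones had an unadjusted p below 0.05. CENPA, the histone H3 variant of centromeres, was at 9.11, 9.08 and 9.04 in the control arrays and 9.47, 9.36 and 9.52 in the sgRNA-B arrays (log2 fold change 0.38, SE 0.06, adjusted p = 0.00309). HJURP, its chaperone (log2 fold change 0.26, adjusted p = 0.00294), MIS18A, which prepares centromeres for it (log2 fold change 0.28, adjusted p = 0.00639), and SPC24, a kinetochore subunit (log2 fold change 0.37, adjusted p = 0.00641), rose too. NDC80 was lost without control arrays 1 or 3 or sgRNA-B arrays 1 or 2 (adjusted p 0.0546 to 0.0649). SPC25 was lost without control array 3 or sgRNA-B arrays 1, 2 or 3 (adjusted p 0.0711 to 0.0982). With 1 array left out, the centromere and kinetochore list had 5 to 10 rises, fewest without sgRNA-B array 1 or control array 3. Of 36 genes of DNA replication, TK1, a thymidine kinase, rose (log2 fold change 0.26, adjusted p = 0.00421) and MCM6, a helicase subunit, fell (log2 fold change -0.16, adjusted p = 0.0366), with a list median of -0.03. MCM6 was lost without sgRNA-A array 1, sgRNA-B arrays 1, 2 or 3 or control arrays 1, 2 or 3 (adjusted p 0.0502 to 0.121).

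Promoters of CDC20 and DLGAP5 are shown for the cell cycle homology region, a short element at which repressors hold these genes off outside G2 and mitosis. They lie at chr1:43358861-43358980, plus strand and chr14:55191624-55191743, minus strand in GRCh38.p14 (RefSeq), 120 bases each. Capitals mark TTTGAA or, on the other strand, TTCAAA. Further matches lay outside the stretches shown, at base -178 from the start of CDC20 and at base 3 from that of DLGAP5. Which match is the working element was not tested.
CDC20: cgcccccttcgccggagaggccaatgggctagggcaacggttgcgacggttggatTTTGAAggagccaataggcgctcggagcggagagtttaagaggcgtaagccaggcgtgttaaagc
DLGAP5: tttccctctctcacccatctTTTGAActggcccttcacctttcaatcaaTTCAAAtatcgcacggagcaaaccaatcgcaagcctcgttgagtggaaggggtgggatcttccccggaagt
The letters were in 8 of 13 risen members with a promoter in the table (61.5%) and in 12 of 14 not called (85.7%). The share was 19.8% of all genes that rose, 17.3% of all that fell and 16.2% of genes tested.

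Sterol synthesis and its regulators had 20 measured genes, of which 4 rose and 0 fell in limma's fit (3 lower ones had an unadjusted p below 0.05), with a median of 0.19. DHCR7, which makes cholesterol from 7-dehydrocholesterol, was at 9.85, 9.66 and 9.83 in the control arrays and 10.32, 10.19 and 10.27 in the sgRNA-B arrays (log2 fold change 0.48, SE 0.06, adjusted p = 0.000896). STARD4, a sterol carrier, was at 8.28, 8.29 and 8.25 in the control arrays and 8.54, 8.73 and 8.82 in the sgRNA-B arrays (log2 fold change 0.42, SE 0.07, adjusted p = 0.00474). ACAT2, which makes the precursor acetoacetyl-CoA (log2 fold change 0.32, adjusted p = 0.00267), and SQLE, the squalene epoxidase (log2 fold change 0.25, adjusted p = 0.00236), rose as well. Fatty acid synthesis gave 1 rise among 25 genes, ACLY, lost without sgRNA-B arrays 1 or 3 or control arrays 1, 2 or 3 (adjusted p 0.0607 to 0.148). The count there was 2 without sgRNA-A array 1 and 0 without sgRNA-B arrays 1 or 3 or control arrays 1, 2 or 3. The sterol element core TCACNCCAC (GTGGNGTGA on the other strand) was in 0 of 2 risen members with a promoter in the table and 1 of 16 not called (6.25%), against 1.44% of genes tested.

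Signalling ligands, receptors and targets moved in both directions. JAG1, a Notch ligand, was at 10.40, 10.36 and 10.52 in the control arrays and 9.88, 9.88 and 10.01 in the sgRNA-B arrays (log2 fold change -0.50, SE 0.05, adjusted p = 0.00035), and the receptor NOTCH3 fell (log2 fold change -0.48, adjusted p = 0.0223) but was lost without sgRNA-B arrays 1 or 2 or control arrays 1 or 3 (adjusted p 0.09 to 0.109). No other of 33 Notch genes was called, and the count of falls was 1 without sgRNA-B arrays 1 or 2 or control arrays 1 or 3. In the BMP pathway, BMP4 was the only one called of 36 genes. Its target ID1 had a log2 fold change of -0.06 (adjusted p = 0.566).

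Of 17 genes of the ERBB and MET receptors and their ligands, EGFR, EREG and ERRFI1 fell. EGFR was at 10.07, 10.07 and 10.15 in the control arrays and 9.78, 9.67 and 9.80 in the sgRNA-B arrays (log2 fold change -0.35, SE 0.05, adjusted p = 0.00202). EREG, one of its ligands, was at 10.04, 10.04 and 9.94 in the control arrays and 9.70, 9.64 and 9.68 in the sgRNA-B arrays (log2 fold change -0.33, SE 0.05, adjusted p = 0.00204). ERRFI1, an EGFR inhibitor, had a log2 fold change of -0.14 and was lost without sgRNA-B arrays 1, 2 or 3 or control arrays 1 or 3 (adjusted p 0.0531 to 0.0674). Of 28 genes that respond to ERK, 3 rose (ETV5, EGR1 and ETV1) and 5 fell (EPHA4, DUSP5, DUSP4, EPHA2 and EMP1). DUSP5, a phosphatase that acts on ERK, was at 9.37, 9.31 and 9.35 in the control arrays and 8.89, 8.98 and 8.96 in the sgRNA-B arrays (log2 fold change -0.40, SE 0.05, adjusted p = 0.000883), and EPHA4, an ephrin receptor, fell (log2 fold change -0.64, adjusted p = 0.00936). ETV1 (log2 fold change 0.54, adjusted p = 0.0108) was lost without sgRNA-B arrays 1 or 2 or control array 1 (adjusted p 0.051 to 0.0549), EGR1 without control arrays 1, 2 or 3 or sgRNA-B arrays 1, 2 or 3 (adjusted p 0.0549 to 0.174) and DUSP4 without control arrays 1, 2 or 3 or sgRNA-B arrays 1, 2 or 3 (adjusted p 0.0646 to 0.138). EPHA2 was lost without control arrays 1 or 3, sgRNA-A arrays 1 or 3 or sgRNA-B arrays 1, 2 or 3 (adjusted p 0.0529 to 0.158) and EMP1 without control arrays 1 or 3 or sgRNA-B arrays 1, 2 or 3 (adjusted p 0.0585 to 0.152). The counts were 1 without sgRNA-B arrays 1 or 2 or control array 1 for rises, and 2 without sgRNA-B arrays 1, 2 or 3 or control arrays 1 or 3 for falls.

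IGFBP6, a binding protein that favours IGF2, was at 8.04, 8.01 and 7.86 in the control arrays and 8.68, 8.57 and 8.64 in the sgRNA-B arrays (log2 fold change 0.66, SE 0.08, adjusted p = 0.000771). IGFBP3, IGF1R, IRS2 and IGF2R fell, giving 1 rise and 4 falls among 20 genes of the IGF axis. The falls were 1 without sgRNA-B arrays 1 or 3 and 0 without sgRNA-B array 2 or control arrays 1 or 3. IGFBP3 (log2 fold change -0.63, adjusted p = 0.0177) was lost without sgRNA-B arrays 2 or 3 or control arrays 1 or 3 (adjusted p 0.0543 to 0.0817). The receptor IGF1R (log2 fold change -0.33, adjusted p = 0.0207) was lost without sgRNA-B arrays 1 or 2 or control arrays 1 or 3 (adjusted p 0.081 to 0.0913), and IGF2R (log2 fold change -0.25, adjusted p = 0.0305) was lost without sgRNA-B arrays 1, 2 or 3 or control arrays 1 or 3 (adjusted p 0.05 to 0.123). IRS2, which relays the signal of the receptor, was lost without control arrays 1 or 3, sgRNA-A arrays 1, 2 or 3 or sgRNA-B arrays 1, 2 or 3 (adjusted p 0.0592 to 0.177).

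Of 37 epithelial genes, DSC2, DSP and DSG2 fell and TJP3, a tight junction protein, rose. DSC2, a desmosomal cadherin, was at 10.86, 10.84 and 10.94 in the control arrays and 10.44, 10.36 and 10.52 in the sgRNA-B arrays (log2 fold change -0.44, SE 0.05, adjusted p = 0.000785). DSP, which links desmosomes to keratin filaments, was at 10.30, 10.39 and 10.29 in the control arrays and 10.03, 10.08 and 10.11 in the sgRNA-B arrays (log2 fold change -0.26, SE 0.04, adjusted p = 0.00677). DSG2 (log2 fold change -0.17, adjusted p = 0.0453) was lost without sgRNA-A array 1, sgRNA-B arrays 1, 2 or 3 or control arrays 1, 2 or 3 (adjusted p 0.062 to 0.132), and TJP3 (log2 fold change 0.44, adjusted p = 0.0183) was lost without sgRNA-B arrays 1 or 2 or control arrays 1 or 3 (adjusted p 0.0563 to 0.0909). CDH1, the cadherin of adherens junctions, had a log2 fold change of -0.09 (adjusted p = 0.139), and none of 15 keratins was called (list median -0.02, lowest adjusted p = 0.119).

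Matrix and adhesion genes split. LOXL2, which cross-links collagen, was at 8.41, 8.17 and 8.20 in the control arrays and 8.80, 8.84 and 8.88 in the sgRNA-B arrays (log2 fold change 0.58, SE 0.07, adjusted p = 0.00112). TNC, a matrix glycoprotein, was at 11.48, 11.47 and 11.57 in the control arrays and 11.10, 11.06 and 11.19 in the sgRNA-B arrays (log2 fold change -0.39, SE 0.04, adjusted p = 0.00035). The kinase AXL rose (log2 fold change 0.32, adjusted p = 0.0089) but was lost without sgRNA-B array 1 (adjusted p = 0.0524). Of 34 mesenchymal genes these 3 were the only ones called, and the count of rises was 1 without sgRNA-B array 1. Of 29 integrins and laminins, ITGA4, LAMA4 and LAMB1 rose and LAMB3, ITGB6 and ITGA2 fell. LAMB3, a beta chain of epithelial laminin, was at 10.63, 10.57 and 10.67 in the control arrays and 10.17, 10.13 and 10.22 in the sgRNA-B arrays (log2 fold change -0.45, SE 0.04, adjusted p = 0.000282), while LAMB1 rose (log2 fold change 0.25, adjusted p = 0.00622). LAMA4 was lost without sgRNA-B array 1 (adjusted p = 0.0598) and ITGB6 without control array 3 or sgRNA-B arrays 1 or 2 (adjusted p 0.0511 to 0.0713). ITGA2 (log2 fold change -0.26, adjusted p = 0.00936) was lost without sgRNA-B array 1 (adjusted p = 0.0526). The list's count of falls was 1 without sgRNA-B array 1.

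Among 24 genes of caveolae and YAP output, CAVIN2, TEAD2, AXL and CAVIN3 rose and F3, tissue factor, fell, at 12.56, 12.53 and 12.56 in the control arrays and 12.32, 12.25 and 12.26 in the sgRNA-B arrays (log2 fold change -0.27, SE 0.03, adjusted p = 0.000449). The count of rises was 2 without control arrays 1 or 3 and 1 without sgRNA-B array 1. TEAD2 (log2 fold change 0.37, adjusted p = 0.0301) was lost without sgRNA-B arrays 1 or 3 or control arrays 1, 2 or 3 (adjusted p 0.0521 to 0.132), AXL without sgRNA-B array 1 (adjusted p = 0.0524) and CAVIN3 without control arrays 1 or 3, sgRNA-A arrays 1 or 2 or sgRNA-B arrays 1 or 2 (adjusted p 0.0512 to 0.156). Among 32 S100 proteins and annexins, S100A3 rose, at 7.67, 7.55 and 7.70 in the control arrays and 8.20, 8.62 and 8.19 in the sgRNA-B arrays (log2 fold change 0.70, SE 0.11, adjusted p = 0.00424), while S100A2 fell, at 8.29, 8.09 and 8.43 in the control arrays and 7.16, 7.44 and 7.67 in the sgRNA-B arrays (log2 fold change -0.85, SE 0.12, adjusted p = 0.00235). ANXA9 and ANXA6 also rose and S100P and S100A14 also fell. The counts were 1 without sgRNA-B arrays 1, 2 or 3 or control arrays 1, 2 or 3 for rises, and 1 without sgRNA-B array 1 for falls. S100A14 (log2 fold change -0.19, adjusted p = 0.0123) was lost without sgRNA-B array 1 or control array 3 (adjusted p 0.0509 to 0.0718), ANXA9 without sgRNA-B arrays 1, 2 or 3 or control arrays 1, 2 or 3 (adjusted p 0.0664 to 0.151), ANXA6 without control arrays 1, 2 or 3 or sgRNA-B arrays 1, 2 or 3 (adjusted p 0.0596 to 0.126) and S100P without sgRNA-B arrays 1 or 3 (adjusted p 0.0619 to 0.0653).

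Hyaluronan turnover gave 2 falls and 1 rise among 18 genes. CEMIP was at 7.48, 7.51 and 7.53 in the control arrays and 6.63, 6.54 and 6.58 in the sgRNA-B arrays (log2 fold change -0.92, SE 0.09, adjusted p = 0.000226). HAS3, a hyaluronan synthase (log2 fold change -0.35, adjusted p = 0.0424), was lost without sgRNA-A array 1, sgRNA-B arrays 1 or 2 or control arrays 1, 2 or 3 (adjusted p 0.0558 to 0.175), and the receptor HMMR, which also acts at the spindle (log2 fold change 0.29, adjusted p = 0.0155), was lost without sgRNA-B arrays 2 or 3 (adjusted p 0.0609 to 0.0741). The falls were 1 without sgRNA-A array 1, sgRNA-B arrays 1 or 2 or control arrays 1, 2 or 3, and the rises 0 without sgRNA-B arrays 2 or 3.

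Retinoid and vitamin D genes had 4 rises and 1 fall among 29. Besides DHRS3, ALDH1A3, which makes retinoic acid from retinal, was at 10.52, 10.36 and 10.41 in the control arrays and 10.78, 10.76 and 10.75 in the sgRNA-B arrays (log2 fold change 0.34, SE 0.05, adjusted p = 0.00177). CYP24A1, which inactivates vitamin D, was at 7.08, 7.07 and 7.12 in the control arrays and 7.62, 7.66 and 7.67 in the sgRNA-B arrays (log2 fold change 0.55, SE 0.08, adjusted p = 0.00292). RDH11, a retinal reductase, rose too (log2 fold change 0.24, adjusted p = 0.0119) and was lost without sgRNA-B arrays 1 or 2 (adjusted p 0.0529 to 0.0543). DHRS9, a retinol dehydrogenase, fell, at 6.32, 6.41 and 6.27 in the control arrays and 5.57, 5.76 and 5.63 in the sgRNA-B arrays (log2 fold change -0.68, SE 0.11, adjusted p = 0.00422).

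Redox genes gave 3 rises (GPX8, GPX3 and GPX1) and 3 falls (SLC7A11, GSTP1 and TXNIP) among 35. GPX8 was at 7.48, 7.25 and 7.05 in the control arrays and 8.10, 8.18 and 8.15 in the sgRNA-B arrays (log2 fold change 0.88, SE 0.12, adjusted p = 0.00174). TXNIP, an inhibitor of thioredoxin, was at 11.42, 11.29 and 11.30 in the control arrays and 11.10, 11.09 and 11.11 in the sgRNA-B arrays (log2 fold change -0.24, SE 0.04, adjusted p = 0.00431). GPX3 (log2 fold change 0.26, adjusted p = 0.0126) was lost without sgRNA-B arrays 1 or 2 or control array 1 (adjusted p 0.0585 to 0.0698) and SLC7A11 without sgRNA-A array 1, sgRNA-B arrays 1, 2 or 3 or control arrays 1, 2 or 3 (adjusted p 0.0543 to 0.169). GPX1 was lost without control arrays 1, 2 or 3, sgRNA-A array 1 or sgRNA-B arrays 1, 2 or 3 (adjusted p 0.0634 to 0.162) and GSTP1 without control arrays 1 or 2, sgRNA-A array 1 or sgRNA-B arrays 1, 2 or 3 (adjusted p 0.0523 to 0.163). The counts were 1 without sgRNA-B arrays 1 or 2 or control array 1 for rises, and 1 without sgRNA-A array 1, sgRNA-B arrays 1, 2 or 3 or control array 1 for falls. Of 30 lysosomal genes CTSV fell, at 10.38, 10.30 and 10.36 in the control arrays and 9.59, 9.48 and 9.59 in the sgRNA-B arrays (log2 fold change -0.79, SE 0.05, adjusted p = 6.08e-06). NPC2 (log2 fold change 0.26, adjusted p = 0.032) and CTSA (log2 fold change 0.16, adjusted p = 0.0101) rose, but were lost without sgRNA-B arrays 1 or 2 or control arrays 1 or 3 (adjusted p 0.0642 to 0.141) and without sgRNA-B array 1 or control array 1 (adjusted p 0.0548 to 0.0549). Rises there were 1 without sgRNA-B array 2 or control array 3 and 0 without sgRNA-B array 1 or control array 1.

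Of 35 hypoxia and glycolysis genes 8.57% were called, and of 30 respiratory genes 3.33%, against 3.07% of all genes. These lists had median levels of 8.90 and 9.75, against 4.89 for all genes, so the 3.07% is not matched for level. SLC2A1, the glucose carrier GLUT1, fell (log2 fold change -0.20, adjusted p = 0.00446), and of 35 hypoxia and glycolysis genes LOXL2 and BNIP3L, a mitophagy receptor, rose (log2 fold change 0.24, adjusted p = 0.0092). ATP5MC1, a subunit of ATP synthase, was the only one called of 30 respiratory genes, at 8.41, 9.02 and 8.80 in the control arrays and 9.46, 9.48 and 9.41 in the sgRNA-B arrays (log2 fold change 0.71, SE 0.11, adjusted p = 0.00422). None of 26 ribosomal protein genes was called (list median 0.02, lowest adjusted p = 0.0767). Of 21 lung lineage genes ETV5 and SOX9, a factor of the growing airway tips, rose (log2 fold change 0.29, adjusted p = 0.00778). Of 24 p53 targets CCNG1 rose (log2 fold change 0.27, adjusted p = 0.01) but was lost without sgRNA-B array 2 (adjusted p = 0.0521), with a count of 2 without sgRNA-B array 3 and 0 without sgRNA-B array 2.

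Of 28 genes that make or use microRNAs, 2 fell. DICER1, which cuts the hairpins, was at 8.90, 8.95 and 9.06 in the control arrays and 8.67, 8.67 and 8.73 in the sgRNA-B arrays (log2 fold change -0.28, SE 0.06, adjusted p = 0.0166). AGO2, which carries the mature microRNA, was at 9.61, 9.43 and 9.56 in the control arrays and 9.33, 9.26 and 9.30 in the sgRNA-B arrays (log2 fold change -0.24, SE 0.06, adjusted p = 0.0459). DICER1 was lost without sgRNA-B arrays 1 or 2 or control array 3 (adjusted p 0.0626 to 0.0741) and AGO2 without sgRNA-A arrays 2 or 3, sgRNA-B arrays 1, 2 or 3 or control arrays 1 or 3 (adjusted p 0.0544 to 0.179). The count of falls was 1 without sgRNA-A arrays 2 or 3, sgRNA-B array 3 or control array 1 and 0 without sgRNA-B arrays 1 or 2 or control array 3. Outside 14q32, 2 of 27 imprinted genes fell, PLAGL1 (log2 fold change -0.35, adjusted p = 0.0367) and PEG10 (log2 fold change -0.20, adjusted p = 0.0146). PLAGL1 was lost without sgRNA-B arrays 1, 2 or 3 or control arrays 1, 2 or 3 (adjusted p 0.0573 to 0.14) and PEG10 without sgRNA-B arrays 2 or 3 or control arrays 1 or 3 (adjusted p 0.053 to 0.0662). Here the count was 1 without sgRNA-B array 1 or control array 2 and 0 without sgRNA-B arrays 2 or 3 or control arrays 1 or 3. Of 89 H/ACA small nucleolar RNAs SNORA5A fell (log2 fold change -0.44, adjusted p = 0.0449) and was lost without sgRNA-A array 1, sgRNA-B arrays 1, 2 or 3 or control arrays 1, 2 or 3 (adjusted p 0.0505 to 0.163).

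To see where the sgRNA-B clone differs from the other activated clone, it was tested directly against sgRNA-A. The difference itself holds no control level, but the control arrays entered the estimate of the spread. It called 25 genes (0.104%), 15 higher (0.0627%) and 10 lower (0.0418%), and the count was 9 without sgRNA-A array 1, 8 without sgRNA-A array 2, 11 without sgRNA-A array 3, 6 without sgRNA-B array 1, 8 without sgRNA-B array 2 and 12 without sgRNA-B array 3. Of these, 17 were also called against control, in the same direction, though both contrasts share the sgRNA-B arrays. FBXO2 was at 6.61, 6.81 and 6.77 in the sgRNA-A arrays, below every sgRNA-B array (difference 1.17, SE 0.09, adjusted p = 8.35e-05). CAVIN2 was at 8.50, 8.52 and 8.40 (difference 0.65, SE 0.07, adjusted p = 0.00102). Both kept the call when any array was left out.

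Other genes differed between the clones with no call of sgRNA-B against control. MB, myoglobin, was at 8.89, 8.91 and 9.02 in sgRNA-A, 7.36, 7.35 and 7.46 in sgRNA-B and 6.94, 7.28 and 7.42 in control, so sgRNA-B lay -1.55 from sgRNA-A (adjusted p = 2.25e-05) and was not called against control. IGFBP4, an IGF binding protein, was at 8.84, 8.83 and 8.76 in sgRNA-A and 7.93, 8.10 and 7.94 in sgRNA-B (difference -0.82, adjusted p = 0.000209). HMOX1, haem oxygenase 1, differed by -0.47 (adjusted p = 0.0016), and PCDH19, a protocadherin, by 0.77 (adjusted p = 0.00122). Against control, sgRNA-B was not called for any of these, at log2 fold changes of 0.23, -0.02 and -0.19 for the last 3. For the largest fall, CEACAM5, the difference between the clones was 0.30 (95% interval 0.17 to 0.43, adjusted p = 0.0944), and for ARG2 0.35 (95% interval 0.16 to 0.53, adjusted p = 0.187).

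**Figure D4:**
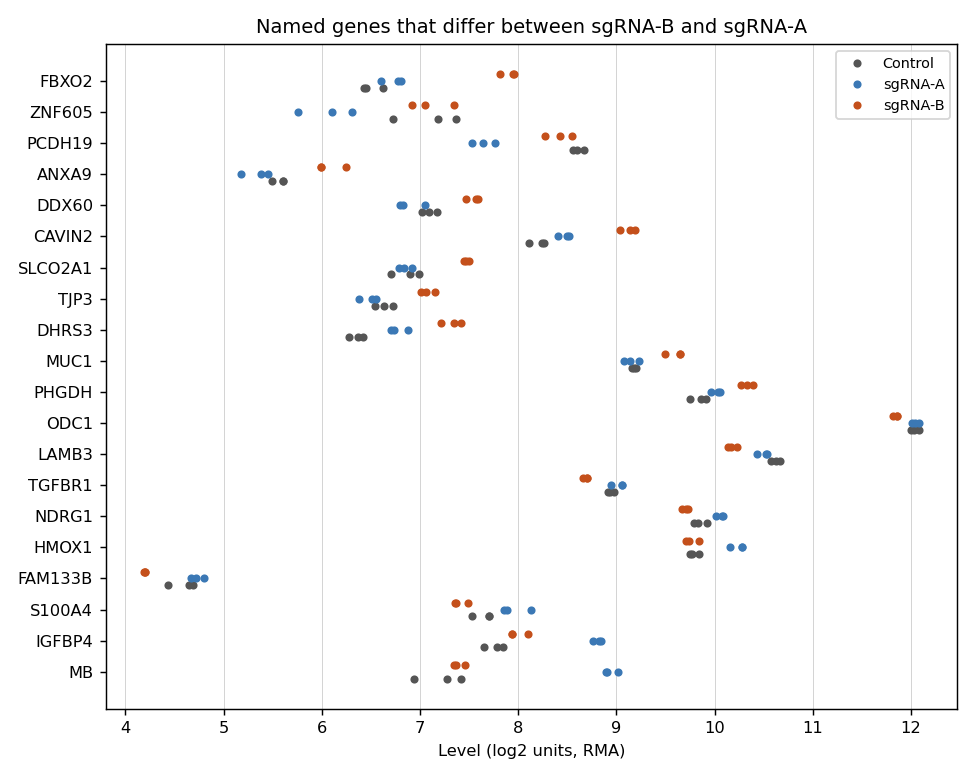
Levels (log2 units, each point 1 array) of the named genes that differ between the sgRNA-B and sgRNA-A clones, with control arrays for reference. FBXO2 is higher in sgRNA-B than in both other groups, and MB is higher in sgRNA-A than in both.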

How the data were processed

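Per the labels' protocols, biotin-labelled RNA of 9 cultures was measured on Affymetrix arrays, 1 a culture. The authors deposited 1 value per probe set and array on a log2 scale, made with RMA, per the submitters' processing notes; its version and the array's probe definitions are not given in the sources used here. The method gives all arrays 1 distribution (every median was 4.913), so shifts common to all genes are removed. Probe sets were named through the supplied annotation: 23934 of 24733 had 1 symbol, 0 several and 799 none, and 23893 gene numbers matched RefSeq (GRCh38.p14). For a symbol with several probe sets, the brightest was kept.

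All 9 arrays entered a group-means model in limma 3.58.1 (R 4.3.3; lmFit, eBayes with an intensity trend; 6 residual and 7.27 prior degrees of freedom), with Benjamini-Hochberg adjustment over 23931 genes and a threshold of 0.05. No dim genes were filtered out. Groups came from sample titles. The steps were tested on simulated data. The number of arrays limits the precision, and a p-value speaks of cultures of 1 clone, not of further clones.

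Members and lists were chosen with earlier results of these data known. Genes were named by a rule: the 14q32 genes, the 16 largest rises and falls among called genes with no overlap of arrays, up to 4 members per list with the smallest adjusted p, the 8 largest differences each way between the clones, and unchanged list genes by role. Other called members were named after their values were seen. Alternatives were other samples, variance models, weights, filters and normalizations, a replicate block, and leaving out each array; arrays are numbered by replicate. Replicate numbers were not taken to pair the samples.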

Additional observations from a re-analysis of the deposited data

Results flagged for a closer look

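Each of the following genes differed between the sgRNA-B and the sgRNA-A clone in limma's direct contrast. Values are sgRNA-B minus sgRNA-A in log2 units. Each group had 3 arrays. Higher in sgRNA-B were FBXO2 (1.17), ZNF605 (1.05), PCDH19 (0.775), ANXA9 (0.741), DDX60 (0.648), CAVIN2 (0.647), SLCO2A1 (0.623), TJP3 (0.596), DHRS3 (0.551), MUC1 (0.448) and PHGDH (0.313). Lower were MB (-1.55), IGFBP4 (-0.82), S100A4 (-0.553), FAM133B (-0.531), HMOX1 (-0.475), NDRG1 (-0.361), TGFBR1 (-0.335), LAMB3 (-0.323) and ODC1 (-0.199). ZNF605, PCDH19, MB, IGFBP4, S100A4, HMOX1 and NDRG1 were not called against control in the sgRNA-B clone. In DDX60 the sgRNA-A arrays were at 6.83, 7.05 and 6.80, the control arrays at 7.02, 7.17 and 7.09 and the sgRNA-B arrays at 7.47, 7.57 and 7.59.

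FBXO2, CAVIN2, PCDH19, MB, IGFBP4 and HMOX1 kept the call without any 1 array. The others lost it as follows: ZNF605 without sgRNA-A arrays 1, 2 or 3 or sgRNA-B arrays 1, 2 or 3 (adjusted p 0.0601 to 0.184); ANXA9 without sgRNA-A arrays 1, 2 or 3, sgRNA-B arrays 1, 2 or 3 or control array 1 (adjusted p 0.062 to 0.188); DDX60 without sgRNA-A arrays 1 or 3 or sgRNA-B arrays 1, 2 or 3 (adjusted p 0.0623 to 0.0896). SLCO2A1 lost it without sgRNA-A arrays 1, 2 or 3 or sgRNA-B arrays 1, 2 or 3 (adjusted p 0.0522 to 0.0954). TJP3 lost it without sgRNA-A arrays 1, 2 or 3 or sgRNA-B arrays 1, 2 or 3 (adjusted p 0.072 to 0.184) and DHRS3 without sgRNA-A arrays 1, 2 or 3, sgRNA-B arrays 1, 2 or 3 or control array 1 (adjusted p 0.0659 to 0.246). MUC1 lost it without sgRNA-A arrays 1 or 2 or sgRNA-B arrays 1 or 2 (adjusted p 0.0522 to 0.0766) and PHGDH without sgRNA-A arrays 1, 2 or 3, sgRNA-B arrays 1, 2 or 3 or control arrays 1 or 3 (adjusted p 0.0504 to 0.198). Among the lower genes, S100A4 lost it without sgRNA-A arrays 1, 2 or 3 or sgRNA-B arrays 1, 2 or 3 (adjusted p 0.0681 to 0.153), and FAM133B without sgRNA-A arrays 1, 2 or 3 or sgRNA-B arrays 1, 2 or 3 (adjusted p 0.089 to 0.188). NDRG1 lost it without sgRNA-A arrays 1 or 2 or sgRNA-B arrays 1, 2 or 3 (adjusted p 0.0531 to 0.0623) and TGFBR1 without sgRNA-A arrays 1, 2 or 3, sgRNA-B arrays 1, 2 or 3 or control array 1 (adjusted p 0.0522 to 0.164). LAMB3 lost it without sgRNA-A arrays 1 or 2 or sgRNA-B arrays 1 or 2 (adjusted p 0.0681 to 0.0901), and ODC1 without sgRNA-A arrays 1, 2 or 3, sgRNA-B arrays 1, 2 or 3 or control array 1 (adjusted p 0.0734 to 0.253).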

How the results depend on the processing

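Against control, the count of changed genes was 735 and stayed between 520 (no intensity trend) and 1032 (dimmest 50% of genes removed) over the 10 alternatives that kept all arrays or the compared groups. Leaving out 1 array gave 353 to 735 changed genes, 182 to 375 higher and 171 to 360 lower. Of the main calls, 343 were kept without sgRNA-B replicate 1 and 465 with no intensity trend. The share of higher calls stayed between 50.3% and 54.8% in every setting run. Between the clones, 25 genes changed, 39 with the dimmest 50% removed, and 6 to 30 when 1 array was left out. Of 126 genes named by the rule and called against control, 82 kept the call in all 19 alternatives, 3 (SLC6A14, TCN1 and SCGB3A2) kept it in the 18 that gave them a value, since the dimmest 50% removed left them out, and 41 lost it in at least 1, of which 19 only when an array was left out; 0 changed direction. Of 45 other called members of the lists, 34 lost the call when at least 1 array was left out. Of 20 named genes called between the clones, 6 kept the call in all. The replicate number as a block gave 684 changed genes against control, of which 625 were among the main calls, and 34 between the clones. Same-numbered sgRNA-B and control arrays had correlations of deviations of 0.0934, 0.135 and 0.0486, so the numbers were not taken to pair samples. Of the changed genes, 17 had both group means at or below the olfactory receptor level of 4.44, where signal over background limits what a difference shows.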

Other observations

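Genes next to each other in RefSeq order did not always move together. Beside means here within 5 genes in that order. CD79A rose (0.93) within 5 genes of CEACAM6, which fell (-0.54) with its other neighbour CEACAM5 (-1.72). S100A3 rose (0.70) beside S100A2 (-0.85) and S100A14 (-0.19), which fell. IFITM1 fell (-0.45) beside IFITM2 (0.39) and IFITM3 (0.31), which rose; members of this family are near-identical in sequence, so their separate values are uncertain. IFIT1 and IFIT3 rose together, and DSC2 and DSG2 fell together. None of the 10 nearest neighbours of FBXO2, the largest rise, was called.

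Some counts were made after the values were seen and are given as descriptions. Of 292 protein-coding genes of chromosome 13, 0 rose and 13 fell in limma's fit, and 19 higher and 45 lower ones had an unadjusted p below 0.05. Over all genes, 3527 of 23931 had an unadjusted p below 0.05. Chromosome 19 had 36 rises and 8 falls among 1306 protein-coding genes. The share called was 4.45% on chromosome 13 and 3.37% on chromosome 19, against 3.86% of all protein-coding genes. Of 3564 long noncoding RNA genes 21 rose and 8 fell, and of 1082 microRNA genes over the whole genome 2 rose and 4 fell, against 340 rises and 346 falls among 17753 protein-coding genes. The shares called were 0.814%, 0.555% and 3.86%. Their median levels were 3.94, 3.80 and 6.10. Those of the long noncoding and microRNA genes lay below the olfactory receptor level of 4.44, where few changes can be read. In a separate fit of all 24733 probe sets, those with no gene symbol gave 15 rises and 16 falls among 799 (3.88%). The share of all genes in the main fit was 3.07%.

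Of 20 circadian clock genes, a list chosen after the values were seen, 2 rose and 2 fell, beside 1.56% and 1.51% of all genes. BMAL1, the activator of the clock, was at 8.34, 8.15 and 8.24 in the control arrays and 7.75, 7.65 and 7.87 in the sgRNA-B arrays (log2 fold change -0.49, SE 0.08, adjusted p = 0.00634), and CLOCK, its partner, fell as well (log2 fold change -0.17, adjusted p = 0.0308) but was lost without control arrays 1 or 2 or sgRNA-B arrays 1, 2 or 3 (adjusted p 0.0631 to 0.148). PER1, a repressor of the clock, was at 6.64, 6.79 and 6.62 in the control arrays and 7.20, 7.27 and 7.03 in the sgRNA-B arrays (log2 fold change 0.48, SE 0.09, adjusted p = 0.0116), and DBP, an output factor, at 8.06, 8.05 and 7.91 in the control arrays and 8.52, 8.66 and 8.43 in the sgRNA-B arrays (log2 fold change 0.53, SE 0.07, adjusted p = 0.00174). PER1 was lost without control array 1 or sgRNA-B arrays 1 or 2 (adjusted p 0.0527 to 0.0608). In the sgRNA-A clone against control, BMAL1 also fell (log2 fold change -0.62, adjusted p = 0.00241) and PER1 also rose (log2 fold change 0.46, adjusted p = 0.0202). CLOCK (log2 fold change -0.13, adjusted p = 0.115) and DBP (log2 fold change 0.24, adjusted p = 0.127) were not called there. Of 18 prostaglandin genes, also chosen after the values were seen, PTGS2, which makes prostaglandins, fell (log2 fold change -0.52, adjusted p = 0.0296) but was lost without control arrays 1 or 3 or sgRNA-B arrays 1, 2 or 3 (adjusted p 0.0609 to 0.121), and SLCO2A1, which takes them up, rose (log2 fold change 0.61, adjusted p = 0.00236). In the sgRNA-A clone against control, PTGS2 also fell (log2 fold change -0.63, adjusted p = 0.0148), while SLCO2A1 was not called (log2 fold change -0.02, adjusted p = 0.963).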
